A study of Mus musculus with 25 samples.

Results

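Cluster 5 of the deposited cell annotation held 3330 of the 30958 cells of the series (10.76%), and its members were all cells that carry this cluster number. The cells were taken from lesions of mouse spinal cord, or from cords with only a laminectomy (Ctrl), were sorted as myeloid cells and were captured in 25 droplet 3′ libraries. Clusters 1 to 6 are those that lie wholly or mostly in the deposited cell type code whose cells carry microglial markers, and cluster 5 made up 24.32% of their cells and 25.06% of the 13289 cells of that code. All 3330 cells had the microglial code, and 22 libraries held at least 1 of them.

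All mice carried Cx3cr1CreERT2, which places a drug-inducible Cre in the gene Cx3cr1, in the controls too, so the level of Cx3cr1 itself is not a free readout of the cells. The 12 mixed libraries came from mice with this allele alone, in which YFP-positive cells were sorted. The 5 resident libraries came from Cx3cr1CreERT2:R26tdTomato mice, in which cells with both RFP and YFP were taken, so strain and sort are split in the same way. A further 7 libraries held cells sorted as infiltrating (YFP alone) and 1 had labels that conflict, and these 8 entered no comparison. Cells were collected at day 1 (D1, 3 mixed libraries, all male), day 2 (D2, 1 resident male, 1 mixed female and 1 mixed male), day 3 (D3, 2 resident, female and male, and 3 mixed, male), day 10 (D10, 1 resident female and 2 mixed male) and day 21 (D21, 1 mixed female) after injury. The controls were 1 mixed female and 1 resident male library. Each library pools tissue from 1 to 3 mice, the labels give no age, and the library is the replicate throughout. The labels do not say that the libraries of a group came from separate mice, so p-values measure only the spread between these libraries, which may be technical.

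Microglia are the macrophages that reside in the parenchyma of the central nervous system. After damage they lower the genes of their resting state, secrete chemokines that recruit blood leukocytes, take up lipid and debris, and re-enter the cell cycle. A cell that enters the cycle first builds up ribosomes and loads the Mcm2 to Mcm7 helicase on its DNA (licensing), then copies the DNA, and later expresses the genes of mitosis.

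The label of the cluster names the chemokine Ccl12 and the lipase Lpl, and the markers given with it were Ccl12, Gpr84, Lpl, Gatm, Mcm5 and Nes. Over summed cells, in UMIs of a gene per 1000000 UMIs (CPM), all of these but Lpl were higher in cluster 5 than in clusters 1, 2, 3, 4 and 6. Lpl was at 953.5 CPM in cluster 5 and at 1105 CPM in cluster 4. Of 14 microglia markers, 13 reached 20 CPM in cluster 5, and their summed level was 10610 CPM against 36090 in cluster 1. None of 8 monocyte markers reached 20 CPM (summed 14.18 CPM, against 4018 in the code of macrophages), while 4 of 9 markers of infiltrating macrophages did (summed 1034 CPM, against 21160). At 20 CPM or more were also 1 of 8 neutrophil markers (S100a8 at 36.7 CPM; summed 59.75 CPM, against 86730 in the neutrophil-like code, with Ly6g at 0), 1 of 10 dendritic cell, 1 of 7 border macrophage, 1 of 6 B cell, 2 of 7 oligodendrocyte and 1 of 6 oligodendrocyte precursor markers. S100a8 was highest in D1_mixed 3 (119.9 CPM). No T or NK cell, astrocyte, endothelial, pericyte, ependymal, neuron or erythroid marker reached it. The cells thus carried microglial markers, and the cluster is called by its number here.

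In depth, cluster 5 had a median of 3683 UMIs and 1386 genes per cell, and its per-library medians ran from 1924.5 to 5542 UMIs. It was deeper than cluster 2 in 12 of 12 libraries, than cluster 3 in 10 of 10, than cluster 6 in 8 of 8 and than cluster 4 in 1 of 5 libraries with at least 20 cells of both. Cluster 1 was exactly the 1887 control cells. The libraries D3_mixed 1 and D3_mixed 2 stood apart: their summed cluster 5 cells held 106563 and 107752 UMIs, 11.7% and 11% of the tested genes were at 0 there, their median correlation with the other libraries was 0.74 (0.81 to 0.9 for the rest), and they form a sequencing pool of their own. The 3 D1 libraries share 1 pool with D21_mixed 1, so pool cannot be told apart from time in any comparison with D1.

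The members were spread very unevenly over time. D1 libraries held 2316 of the 3330 cells (69.55%), D2 566 (17%), D3 274 (8.228%), D10 115 (3.453%) and D21 59 (1.772%). Of the cells of clusters 1 to 6, cluster 5 was 81.59%, 82.52% and 50.19% in the D1 libraries (71.43% ± 18.4, SD, n = 3). It was 26.29% in D2_resident 1, 32.48% in D2_mixed 1 and 26.09% in D2_mixed 2, which held 23 such cells in all (28.29% ± 3.633, SD, n = 3). At D3 the resident libraries had 12.04% and 9.714% and the mixed libraries 16.21%, 15.05% and 12.77% (13.16% ± 2.557, SD, n = 5). These values did not overlap between D1, D2 and D3, but as shares of all cells of a library those of D2 and D3 did. At D10 the share was 2.108% in the resident library and 5.983% and 3.165% in the mixed ones (3.752% ± 2.003, SD, n = 3), and it was 5.211% in the D21 library, inside the range of D10. No control cell was in the cluster, and the exact 95% interval (Clopper-Pearson, counting error only) reached 0.2578% in the mixed and 0.8022% in the resident control library. The low D1 library, D1_mixed 3, had 46.61% of its cells in cluster 2, against 15.59% and 15.47% in the other two. Since the clusters were built from genes that change with time, these shares are a description and were not tested.

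**Figure D1:**
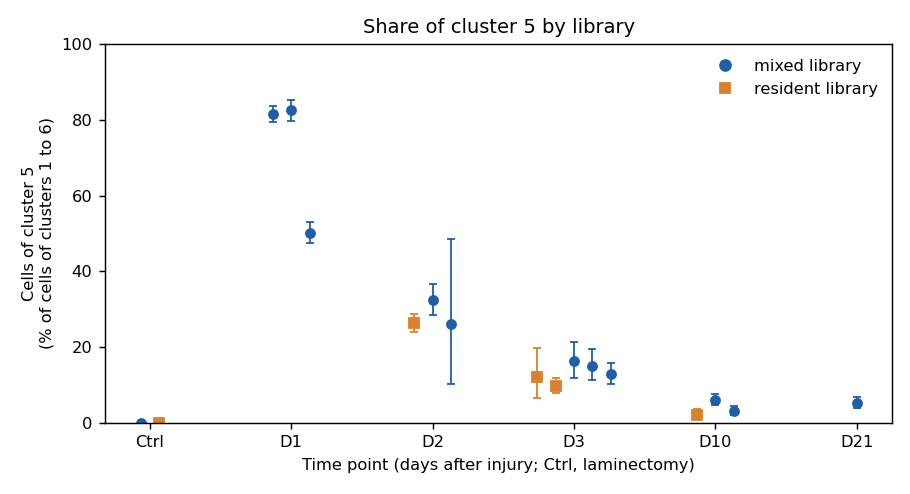
Share of cluster 5 among the cells of clusters 1 to 6 (y axis, %) in each mixed (circle) and resident (square) library by time point, with exact 95% intervals. D1 libraries sit at 50.19% to 82.52%, D2 at 26.09% to 32.48%, D3 at 9.714% to 16.21%, D10 at 2.108% to 5.983%, and both controls at 0.

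To see which genes set the cluster apart, CPM over its summed cells were divided by those of the other cells of clusters 1 to 6, with 5 CPM added to both, for genes at 50 CPM or more in cluster 5. The ratios describe the clustering and are not a test. The 15 highest fell into a few groups. The scavenger receptor Msr1 led with 590.1 against 99.87 CPM (ratio 5.675), followed by the monocyte-attracting chemokines Ccl2 (872.9 against 162.5, ratio 5.241), Ccl12 (2845 against 567.4, 4.979) and Ccl7 (153.2 against 28.9, 4.668). Replication genes came next: the chromatin remodeller Hells (60.01 against 9.344, ratio 4.532) and the licensing helicase subunits Mcm2 (4.3), Mcm5 (3.779), Mcm6 (3.741) and Mcm4 (3.603). The list was completed by the membrane protease Adam8 (4.415), the spermidine synthase Srm (3.787), the RNA-binding protein Ybx3 (3.732), the matrix protein Tgfbi (3.584), the glutaredoxin Glrx (3.518) and the pyrophosphatase Ppa1 (3.308). Just outside it were Mcm3 (3.26) and the complement receptor C5ar1 (3.234).

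The cluster has few cells at late times, so a ratio over pooled cells mixes clusters with time points. Cluster 5 was therefore set against each other cluster within the same library, as a log2 ratio of CPM with 5 added. Ccl12 was higher in cluster 5 in 10 of 12 libraries against cluster 2 (median log2 ratio 0.90), 8 of 10 against cluster 3 (1.10), 3 of 5 against cluster 4 (0.97) and 8 of 8 against cluster 6 (1.03). Gpr84, a receptor for medium-chain fatty acids, was higher in 12 of 12 against cluster 2 (1.68) and in 4 of 5 against cluster 4 (0.12). Lpl, lipoprotein lipase, was higher in 12 of 12, 9 of 10, 4 of 5 and 8 of 8 libraries against clusters 2, 3, 4 and 6 (medians 1.23, 0.66, 0.51 and 0.82). Within libraries, then, Lpl was mostly above cluster 4 although the pooled level was below it.

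Mcm5 was higher in cluster 5 in all 12, 10 and 5 libraries against clusters 2, 3 and 4 (medians 1.63, 2.53 and 2.32) and in 7 of 8 against cluster 6 (0.31). Hells was higher in each library against all 4 clusters (medians 1.92, 2.98, 2.40 and 2.31), and so was C5ar1 (0.89, 0.68, 0.77 and 0.62). Gatm, the first enzyme of creatine synthesis, varied by cluster: it was higher in 6 of 12 libraries against cluster 2 (0.06), 9 of 10 against cluster 3 (0.39), 4 of 5 against cluster 4 (0.14) and 2 of 8 against cluster 6 (-0.25). Nes, the intermediate filament protein nestin, was higher in 9 of 12 libraries against cluster 2 (1.38) and 5 of 8 against cluster 6 (0.60). The chemokines did not stand together. Ccl5 was higher in cluster 5 in 1 of 12 libraries against cluster 2 (-1.60) and in none of 10 against cluster 3 (-1.95), and Ccl7 in 4 of 12 against cluster 2 (-0.69).

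**Figure D2:**
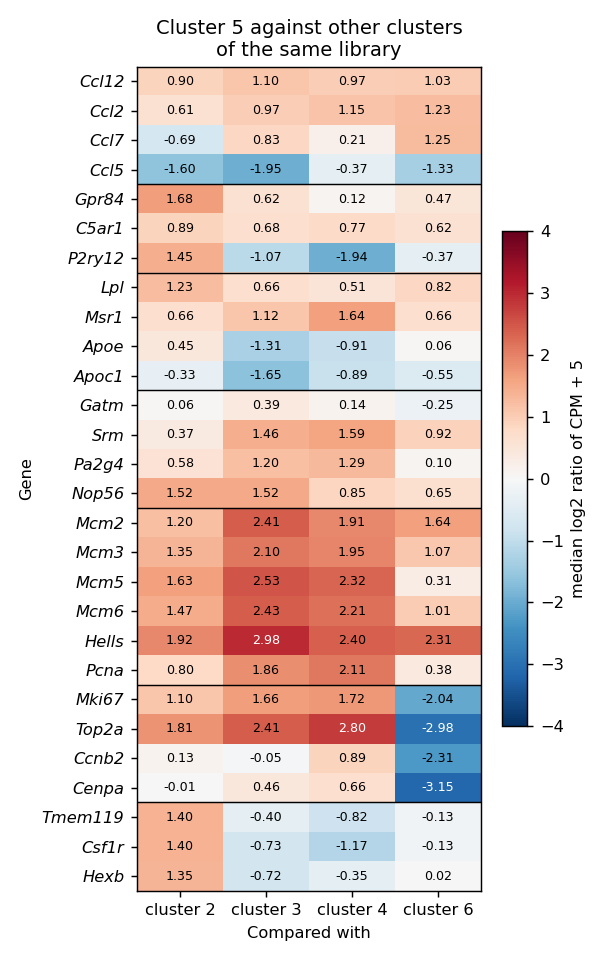
Median log2 ratio (CPM + 5) of cluster 5 to clusters 2, 3, 4 and 6 of the same library for genes grouped by role (rows). Hells (1.92 to 2.98) is above 0 in every column, while the mitosis genes at the bottom of their block are far below 0 against cluster 6 alone (Cenpa -3.15).

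By list, the sharpest difference lay between replication and mitosis. Of 31 replication licensing and G1/S genes at or above the floor, all 31 had a median ratio above 0 against clusters 2, 3 and 4 (list medians 1.27, 2.08 and 1.90) and 25 against cluster 6 (0.41). Over all 7144 genes the medians were 0.12, 0.17, -0.18 and 0.0, with 4496, 4742, 2827 and 3497 genes above 0 against clusters 2, 3, 4 and 6. Of 28 mitosis genes, 26 were above 0 against clusters 2 and 3 and 22 against cluster 4, but all 28 were lower in every one of 8 libraries against cluster 6 (list median -2.90), which holds the dividing cells, as were 362 of all 7144 genes. Nucleolus and ribosome biogenesis genes were above 0 in 23 of 23 against clusters 2, 3 and 6 and in 20 of 23 against cluster 4. Homeostatic genes (the resting program of microglia) gave 23 of 23 above cluster 2 (median 1.09) and 0 of 23 above clusters 3 and 4 (-0.56 and -1.10). Against cluster 6, 10 of the 23 were above 0 (-0.11). Of 18 interferon-stimulated genes, 0 were above cluster 2 (-0.68), 2 above cluster 3, 3 above cluster 4 and 11 above cluster 6.

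Mcm2, Mcm5 and Mcm6 stood among the leading genes of the cluster, so the bases before their starts are shown. The windows are from RefSeq on GRCm38.p6, 5′ to 3′ on the gene's strand, and end before the outermost annotated start of the gene. Capitals mark matches to the E2F-type 8-mers TTTCCCGC, TTTGGCGC, TTTCGCGC and TTTGCCGC on either strand, with overlapping matches shown as 1 run. Mcm5 lies at chr8:75109468-75128439, and its window is chr8:75109259-75109467 on the plus strand, with 2 overlapping matches. The window of Mcm6 is chr1:128359706-128359955 on the minus strand, with 3 matches, of which 2 overlap. That of Mcm2 is chr6:88898781-88899030 on the minus strand and has none.
Mcm5: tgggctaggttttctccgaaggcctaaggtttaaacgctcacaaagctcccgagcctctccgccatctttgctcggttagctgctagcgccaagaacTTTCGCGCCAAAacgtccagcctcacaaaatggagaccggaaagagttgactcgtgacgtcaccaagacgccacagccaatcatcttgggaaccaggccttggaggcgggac
Mcm6: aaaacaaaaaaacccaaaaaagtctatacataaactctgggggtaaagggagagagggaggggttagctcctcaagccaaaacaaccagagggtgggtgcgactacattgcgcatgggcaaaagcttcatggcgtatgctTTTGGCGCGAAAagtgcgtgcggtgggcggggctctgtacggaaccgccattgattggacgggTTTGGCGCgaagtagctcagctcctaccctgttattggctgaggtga
Mcm2: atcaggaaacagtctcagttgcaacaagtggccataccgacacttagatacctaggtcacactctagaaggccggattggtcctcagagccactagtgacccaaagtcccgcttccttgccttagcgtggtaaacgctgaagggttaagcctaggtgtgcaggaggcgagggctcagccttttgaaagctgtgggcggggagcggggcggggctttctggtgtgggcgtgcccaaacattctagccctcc
Of the 250 bases before 32851 RefSeq starts, 611 (1.86%) held such an 8-mer. Of the replication list, 29 of 36 genes were matched and 10 (34.48%) held it, and of the mitosis list 23 of 28 were matched and 1 (4.35%) did. The pentamer CCAAT, on either strand, was in 33.85% of all windows, in 20 of 29 replication genes (68.97%) and in 21 of 23 mitosis genes (91.3%). The shares over all windows count each start, whereas those of the lists count a gene once, with a match at any of its starts. A match is a description of letters, not a bound site or a cause, and the lists were chosen for their roles.

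Summed over Mcm2 to Mcm7, cluster 5 had 699.4, 591.7 and 197.9 CPM in the D1 libraries, 769.9 (resident) and 786.7 (mixed) at D2, and 845 (resident), 741.3, 983.7 and 344.1 (mixed) at D3. It had 586.6 and 454.5 at D10, 284.9 at D21, and cluster 1 of the controls had 84.5 (mixed) and 293.5 (resident). Licensing genes were thus present from D1 on, in every library but D1_mixed 3 and D21_mixed 1 above the control range.
The 28 mitosis genes summed to 259, 190.9 and 38.66 CPM at D1, 1077 and 1312 at D2, 796.6, 1220, 1058 and 573.6 at D3, 408.5 and 176.7 at D10 and 110.5 at D21, against 5441 to 8148 in cluster 6. All D2 and D3 libraries were above all D1 libraries in mitosis genes. For the licensing genes the D2 libraries were above all D1 libraries too, and D1 and D3 overlapped only through D3_mixed 3 (344.1 CPM).

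**Figure D3:**
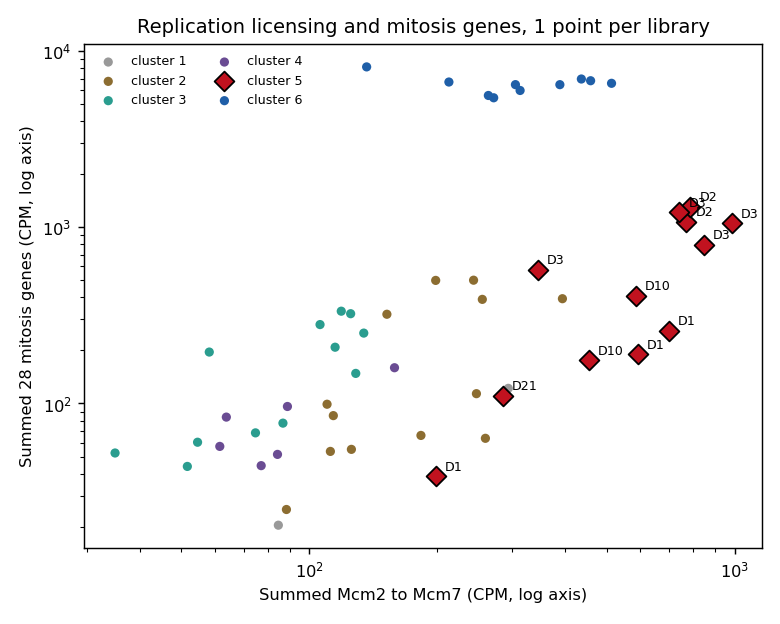
Summed CPM of Mcm2 to Mcm7 (x axis, log scale) against 28 mitosis genes (y axis, log scale), 1 point per library and cluster; diamonds are cluster 5. Cluster 5 at D2 and D3 combines 344.1 to 983.7 CPM of licensing genes with 573.6 to 1312 CPM of mitosis genes, and cluster 6 lies at 5441 to 8148 CPM of mitosis genes.

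Cell by cell, each cell was thinned to 2000 UMIs and shallower cells were left out. Of the cluster 5 cells at D1, 50.31% (exact 95% interval 48.14 to 52.49) had a UMI of any of Mcm2 to Mcm7 (2069 cells, 244 left out), and 64.38% did without thinning. The share was 70.54% at D2 (499 cells, 65 left out), 62.11% at D3 (190, 79 left out), 54.0% at D10 (100, 14 left out) and 20.69% at D21 (58, none left out). For any mitosis gene the D1 share was 19.14%, that of D2 73.55%, that of D3 58.95%, that of D10 31% and that of D21 15.52%. In the neutrophil-like code over all D1 libraries, infiltrating ones too, which should lack these genes, 3.632% of 468 cells had a licensing UMI and 7.479% a mitosis UMI (median depth 2015 UMIs before thinning, 3703 for cluster 5). The cluster 5 shares were above that D1 background, but at D21 the interval of the mitosis share (7.349 to 27.42) held it. They were read over pooled cells, so the intervals cover counting error and not the spread of libraries.

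Some cells held UMIs of both Ccl12 and the licensing genes. Of the thinned D1 cells of cluster 5, 67.76% had a Ccl12 UMI, against 2.137% in the neutrophil-like code, and doublets were not called. In the pooled thinned cells of D1, 53% of the 1402 cells with a Ccl12 UMI also had a licensing UMI. At D2 that share was 71.83% of 284 cells. The libraries were thinned by a separate random draw. There the share was 67.34% in D1_mixed 1, 56.31% in D1_mixed 2 and 30.3% in D1_mixed 3, so the D1 libraries differed widely. It was 65.05% in D2_resident 1 and 69.66% in D2_mixed 1, both below the pooled D2 share, so it also moves by several percentage points with the draw. Cells with and without Ccl12 are not compared.

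The next question was how cells of the cluster differed between time points. Counts were summed over the cluster 5 cells of each library with at least 20 of them (12 libraries, 30 to 984 cells) and fitted in edgeR over 6702 genes with time point and sex as terms. The comparisons of D2, D3 and D10 with D1 share the 3 D1 libraries, and the clustering used the same genes, which limits how far cells of 1 cluster can differ. D21 had 1 library and entered no comparison.

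Day 3 against day 1 had the most libraries (4 against 3). At D3, 6 of 8 CC chemokine ligands, 2 of 12 receptors and 7 of 23 nucleolar genes were lower than at D1, 9 of 20 mitosis and 5 of 16 interferon-stimulated genes were higher, and of 21 lipid genes 7 were higher and 2 lower. In edgeR 329 genes were called at the adjusted threshold of 0.05 (percent called 4.91), 194 higher (2.89) and 135 lower (2.01), and the median log2 change over all genes was 0.03. Of all tested genes, 17.6% did not overlap between the D3 and D1 libraries, and 45.3% did not between D2 and D1. The split was 227 higher and 97 lower with median-of-ratios scaling. The count was 515 without D3_mixed 1 and D3_mixed 2, and single libraries moved it too: it was 48 without D1_mixed 2, 190 without D1_mixed 1 and 214 without D10_mixed 2. All D1 libraries were mixed, so part of the contrast with D3_resident 2 is also one of sort; with the mixed libraries alone the count was 235.

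Of the CC chemokine ligands, 6 of 8 tested fell at D3 (list median -2.20). Ccl12 (chr11:82101845-82103399), a mouse ligand of the receptor Ccr2, stood at 3252, 6019 and 1429 CPM in the D1 libraries and at 632.8, 722.6, 436.2 and 410.7 CPM at D3. It was at 2004 and 1364 CPM at D2, at 964.2 and 138.9 at D10, at 165.7 at D21, and at 164.9 and 1255 in cluster 1 of the mixed and the resident control. All D3 libraries were below all D1 libraries, while the resident control came close to D1_mixed 3. The log2 change at D3 was -2.80 (SE 0.52, edgeR adjusted p = 0.00912), and the call was lost without D1_mixed 2 and with at least 50 cells per library. Ccl2 fell from 934.6, 1484 and 771.3 CPM to 268, 234.6, 510.4 and 201.9 CPM (-1.95 on the log2 scale, SE 0.38, edgeR adjusted p = 0.0113). The other members that fell were Ccl6, which attracts macrophages (-2.49), Ccl7 (-2.45), Ccl9 (-1.76, a call lost in 10 of 24 alternatives) and Ccl5, a T cell attractant (-4.14, with 0 in 2 of the 4 D3 libraries).

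At D10, 3 of the 8 ligands were called lower (percent called over all genes 2.24, with 1.72 higher and 0.522 lower). Ccl2 was at 192.4 and 44.18 CPM (-3.06, SE 0.52, edgeR adjusted p = 0.00664) and Ccl7 at 7.125 and 6.312 CPM against 132.3, 369 and 92.2 at D1 (-4.85, SE 0.85, edgeR adjusted p = 0.00858). Ccl5 had 1253 counts at D1 and 2 at D10, a ratio of 35.76 (exact interval 9.878 to 295.6, counting error only). Ccl6, by contrast, was at 1040 and 801.6 CPM at D10, inside the D1 range of 547.2 to 1042, after 93.84 to 204.2 at D3. Ccl12 at D10 was not called (-2.67, SE 0.67, edgeR adjusted p = 0.0527). In the same libraries the macrophage code held more of Ccl2 (5560 CPM) and Ccl7 (2111) at D1 than cluster 5, and less Ccl12 (725.6), and 14 neutrophil-like cells held 41.47 CPM of Ccl12. Of the CXC ligands, 0 of 6 were called at D3, and Cxcl14 was the only 1 called at D10 (2.45, SE 0.51, edgeR adjusted p = 0.0223), from 40.94, 59.58 and 29.08 to 270.7 and 202 CPM.

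**Figure D4:**
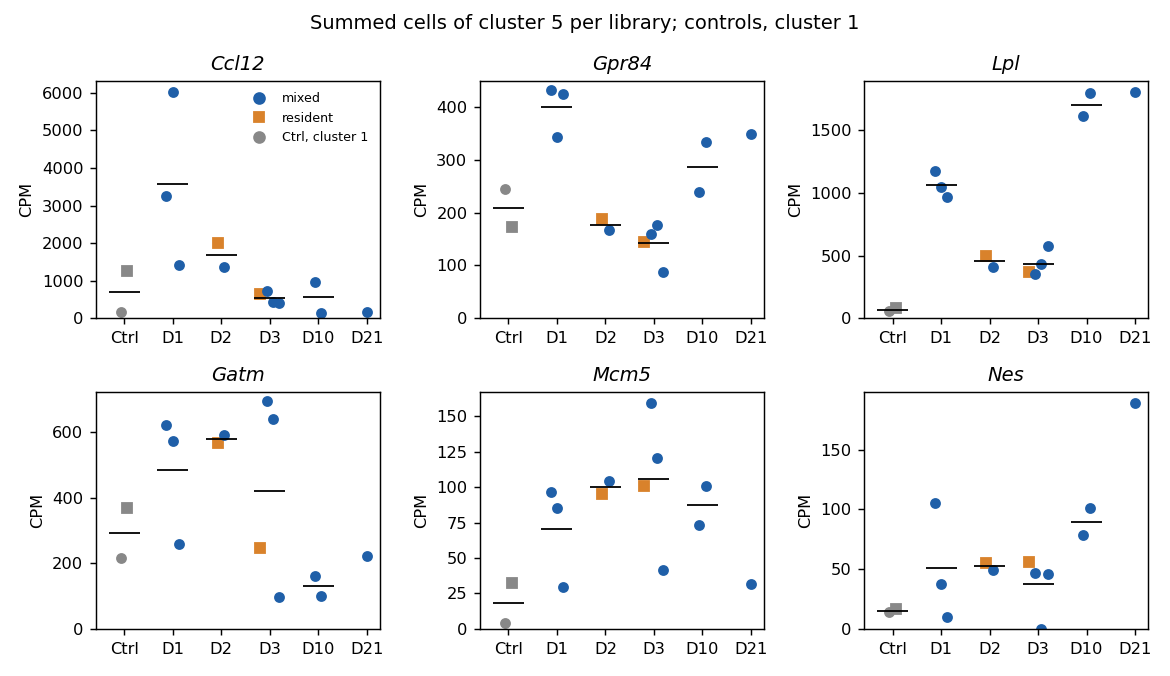
CPM of the 6 markers over the summed cluster 5 cells of each library (points; bars, means), with cluster 1 for the controls. Ccl12, Gpr84 and Lpl are lower in all D3 libraries than in all D1 libraries, Lpl is highest at D10 and D21 (1610 to 1805 CPM), and Gatm, Mcm5 and Nes overlap between D1 and D3.

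Of 12 tested receptors for metabolites, complement and peptides, Gpr84 and C5ar1 were called lower at D3 and C5ar1 at D10. Gpr84 (chr15:103308233-103310670) was at 432.2, 344 and 425.2 CPM at D1 and at 145.2, 159.5, 176.3 and 87.18 at D3, with no overlap. Its log2 change was -1.65 (SE 0.25, edgeR adjusted p = 0.00306), a call that no alternative lost. At D2 it was at 188.1 and 166.7 CPM, at D10 at 239.9 and 334.5 and at D21 at 348.8, so all 3 late libraries lay above D3, the D10 libraries below D1 and the D21 library inside the D1 range. C5ar1, the receptor of the complement fragment C5a, fell at D3 (-1.46, SE 0.27, edgeR adjusted p = 0.00912) and at D10 (-1.47, SE 0.34, edgeR adjusted p = 0.0408), from 1041, 832.8 and 620.3 CPM to 230.8 to 441.1 CPM in the D3 libraries. Cd14, the co-receptor for endotoxin, fell from 952.3, 718.4 and 988.4 CPM to 93.06, 197.1, 222.7 and 160.6 CPM at D3 (-2.53, SE 0.29, edgeR adjusted p = 0.000355). Cd14 was not on the receptor list and was among the largest falls.

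The lipid genes split. Of 21 tested members of the lipoprotein and lipid storage list, 7 rose and 2 fell at D3 (list median 0.94), and 5 rose and 2 fell at D10 (1.20). The 2 that fell at D3 were Lpl and Msr1. Lpl (chr8:68880555-68906932) was at 1173, 1043 and 966.4 CPM at D1 and at 497.8 and 411.6 at D2. At D3 it was at 368.5, 356.6, 436.2 and 575.9 (-1.34, SE 0.25, edgeR adjusted p = 0.00912), a call lost without D1_mixed 2 and with at least 50 cells per library. At D10 it was at 1610 and 1799 CPM, above every D1 library, but not called against D1 (0.67, edgeR adjusted p = 0.25), and at D21 at 1805. With 2 libraries against 3, 50.1% of all tested genes did not overlap between D10 and D1. Lpl thus had a low point at D2 and D3, while in controls it was at 54.67 and 77.68 CPM. Msr1 took another course: 546.5, 849 and 949 CPM at D1, 178.3 to 298.3 at D3 (-1.70, SE 0.28, edgeR adjusted p = 0.00524) and 123.5 and 113.6 at D10 (-2.73, SE 0.38, edgeR adjusted p = 0.00166).

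The apolipoproteins rose. Apoe, the main lipid carrier of the brain, was at 910.2, 894 and 1184 CPM at D1 and at 6008, 12880, 13220 and 5160 at D3 (3.1 on the log2 scale, SE 0.36, edgeR adjusted p = 0.000355). At D10 it was at 33600 and 38450 CPM (5.16, SE 0.41, edgeR adjusted p = 7.92e-06) and at D21 at 40540, each time step without overlap except D2 (1775 and 607 CPM). Apoc1 went from 1.211, 5.615 and 4.256 CPM to 463.1 and 422.9 at D10 (6.90, SE 0.53, edgeR adjusted p = 7.92e-06), and Apoc4 from 3 to 89 counts, a ratio of 519.8 (exact interval 172.2 to 2568). Fabp5, a fatty acid binding protein, was called higher at D3 (2.93, SE 0.72, edgeR adjusted p = 0.0318), with 2544 CPM in D3_mixed 3 and 320.1, 225.2 and 334.1 in the other D3 libraries, all above the D1 libraries (110.5, 110.1 and 131.6). For Fabp5 in cluster 5 D3 vs D1, leaving out D3_mixed 3 kept the call and gave 1.24, and 6 of 24 alternatives lost it.
In the same libraries at D10, Apoe was at 68110 CPM in the macrophage code and at 118.9 CPM in 28 dendritic-like cells. The summed level of the 9 infiltrating macrophage markers in cluster 5 was higher late: 706.8 to 930.5 CPM at D1, 767.2 to 830 at D2, 966.6 to 1936 at D3, 2145 to 2563 at D10 and 3982 at D21. Its members did not move together. Lyz2 had 1307 of 4127854 UMIs in D1_mixed 1 and 1218 of 344016 in D21_mixed 1, and Fn1 had 1561 and 120. Arg1 had 39, 186 and 261 UMIs in the D1 libraries and 0 in those of D10 and D21. The 8 monocyte markers stayed at 31.56 CPM or less in every library, with none of the 8 at 20 CPM over the pooled cells, and the part of macrophage transcripts in the result was not tested.

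Other genes of the disease-associated program of microglia rose with Apoe. Of 28 such genes tested, 6 rose and 1 (Lpl) fell at D3, and 12 rose and none fell at D10 (list medians 0.79 and 1.59). Over all genes, 2.89% were called higher and 2.01% lower at D3, and 1.72% and 0.522% at D10. Apoe, Fabp5 and Lpl are on the lipid list too. The growth factor Igf1 was at 11.63, 4.991 and 3.192 CPM at D1, at 134, 159.5, 361.9 and 328.1 at D3 (5.10, SE 0.47, edgeR adjusted p = 8.31e-05) and at 334.9 and 290.4 at D10 (5.50, SE 0.51, edgeR adjusted p = 2.92e-05). All D3 and D10 libraries were above all D1 libraries. The glycoprotein Gpnmb was at 0.969, 0 and 1.419 CPM at D1 and at 26.06, 46.92, 46.4 and 488.7 at D3 (7.65, SE 1.08, edgeR adjusted p = 0.00207), so the size of that change leans on D3_mixed 3. The lysosomal protease Ctsd rose at D3 (1.43) and D10 (1.99, SE 0.35, edgeR adjusted p = 0.00858), and the receptor adaptor Tyrobp at D10, from 2732, 2697 and 2548 to 7243 and 6034 CPM (1.31, SE 0.30, edgeR adjusted p = 0.0368). Colec12, a scavenger receptor, was at 1.064 to 5.615 CPM at D1 and at 97.37 and 119.9 at D10 (4.95, SE 0.57, edgeR adjusted p = 0.000347).

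Of 23 homeostatic genes of the resting program, 1 was called higher and 1 lower at D3. At D10, where 2.24% of all genes were called, 3 of the 23 were higher and 19 had a positive log2 change (list median 0.82): the secreted protein Sparc (1.43) and the TGF-beta receptors Tgfbr1 (2.03) and Tgfbr2 (1.84). Tgfbr1 was at 63.71, 38.68 and 40.07 CPM at D1 and at 220.9 and 164.1 at D10, against 1246 and 771.4 in cluster 1 of the controls. P2ry12, the purinergic receptor that defines resting microglia, was at 126.7, 102.6 and 85.11 CPM at D1 and 280.2 and 164.1 at D10 (1.11, edgeR adjusted p = 0.291), against 3590 and 1420 in controls. Cst3, a protease inhibitor and 1 of the most abundant microglial transcripts, fell from 18310, 15840 and 24750 CPM to 3659, 3876, 3684 and 4439 at D3 (-2.41, SE 0.26, edgeR adjusted p = 0.000247), a call that no alternative lost, and was at 12490 and 13070 at D10. The higher gene at D3 was Cx3cr1, the fractalkine receptor whose locus carries the transgene: it was at 305.2 CPM in D3_resident 2 and 321.7 in D2_resident 1, and at 2.907 to 64.12 CPM in the mixed libraries after injury. With the mixed libraries alone its calls were lost.

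Of 23 tested genes of the nucleolus and ribosome biogenesis, 7 were lower and none higher at D3 (list median -1.03), and none of the 23 had a positive log2 change. Pa2g4, a regulator of ribosome assembly, was at 498.8, 558.3 and 447.5 CPM at D1 and at 256.8, 178.3, 232 and 156 at D3 (-1.37, SE 0.23, edgeR adjusted p = 0.00524), a call no alternative lost. At D10 it was at 232.7 and 220.9 CPM (-1.16, SE 0.28, edgeR adjusted p = 0.046), a call lost in 9 of 23 alternatives. The nucleolar chaperone Npm1 (-1.26), the rRNA methyltransferase Fbl (-1.28) and the snoRNA protein Nop58 (-1.42) also fell at D3. With them went Myc, the transcription factor of growth, from 55.48, 55.21 and 54.26 CPM to 26.06, 9.384, 18.56 and 6.883 (-1.97, SE 0.42, edgeR adjusted p = 0.0177). The polyamine enzymes Srm (-1.46) and Odc1 (-1.50) fell while Sat1, which acetylates spermidine and spermine, rose (1.09, SE 0.25, edgeR adjusted p = 0.0234), and the creatine transporter Slc6a8 was called higher (2.23). For Slc6a8 in cluster 5 D3 vs D1, 10 of 24 alternatives lost the call, and without D3_mixed 3 the value was 0.97. The chaperones Hspe1, Hspd1 and Cct3 were lower (-0.85, -1.14 and -1.24), 3 of 19 on that list; of 24 alternatives, 13 lost the call of Hspe1 and 10 that of Hspd1. Cyclin D2 (Ccnd2) had 284 counts at D1, 1 at D3 (ratio 25.7, exact interval 4.576 to 1019) and 0 at D10, at least 5.403-fold higher at D1 against a floor of 3 counts over the group, whereas cyclin D1 (Ccnd1, -0.26) and Cdk4 (0.25) were not called.

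In the same comparison, where 2.89% of all genes were called higher, licensing and mitosis genes leaned the same way. The difference between the 2 lists was not tested. Of 33 replication genes tested, 1 rose at D3, the ribonucleotide reductase subunit Rrm1 (1.60, SE 0.44, edgeR adjusted p = 0.0487), a call that 13 alternatives lost. All 33 had a positive log2 change at D2 and at D3 (list medians 0.87 and 0.58). Mcm5 was at 96.66, 85.15 and 29.43 CPM at D1, at 95.46 and 104.2 at D2, at 100.5, 159.5, 120.6 and 41.3 at D3, at 73.62 and 101 at D10 and at 31.98 at D21. The D1 and D3 values overlapped, and the change was not called (0.35, SE 0.43, edgeR adjusted p = 0.684).
Of 20 mitosis genes tested, 9 rose at D3 and 6 at D2, none fell, and none was called at D10 (list medians 2.52, 2.52 and 0.90). Over all genes, 2.89% were called higher at D3, 0.716% at D2 and 1.72% at D10. The D2 comparison rests on D2_resident 1, as set out below. Ccnb2, cyclin B2, was at 0.969, 0.9358 and 0 CPM at D1 and at 18.61, 65.69, 46.4 and 52.77 at D3 (5.76, SE 0.59, edgeR adjusted p = 0.000212), and Cenpa, the centromeric histone, rose by 3.33 (SE 0.56, edgeR adjusted p = 0.00549). Birc5 (2.78) and Cdca8 (1.94), both of the chromosomal passenger complex, rose as well, the call of Birc5 being lost in 11 of 24 alternatives. Hist1h2bc and Hist1h2ap were higher at D3 (4.91 and 4.58), but histone genes of this family have near-identical copies and their counts are uncertain.

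**Figure D5:**
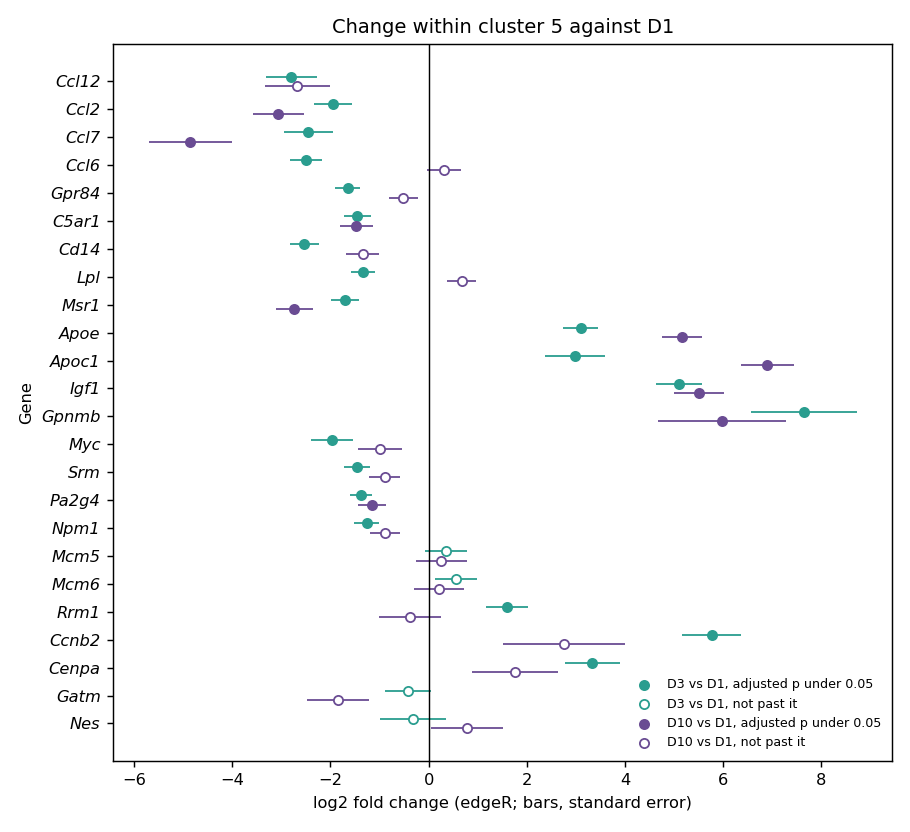
Log2 fold change within cluster 5 (x axis; bars, standard error) at D3 and D10 against D1 for genes by role; filled points pass an edgeR adjusted p of 0.05. Chemokines, receptors and nucleolar genes lie left of 0 at D3, lipid carriers and Igf1 right of it (Apoe 3.1 at D3 and 5.16 at D10), and Mcm5 and Mcm6 near 0.

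Gatm and Nes were not called in any comparison with D1. Gatm (chr2:122594473-122611277) was at 623.8, 572.4 and 257.8 CPM at D1, 567.5 and 591.3 at D2, 245.7, 694.4, 640.4 and 98.65 at D3, 161.5 and 101 at D10 and 223.8 at D21, against 217.2 and 367.9 in controls. The 2 high D3 values are those of D3_mixed 1 and D3_mixed 2, the libraries that stood apart. The D10 and D21 libraries were below all D1 and D2 libraries, but the change at D10 was not called (-1.85, SE 0.62, edgeR adjusted p = 0.135). The log2 change at D3 was -0.42 (SE 0.47, edgeR adjusted p = 0.647). Without D3_mixed 1 and D3_mixed 2, for Gatm in cluster 5 D3 vs D1, it was -1.59 and called (edgeR adjusted p = 0.0499). Nes (chr3:87971093-87980451) was at 105.1, 37.74 and 9.575 CPM at D1, 55.37 and 49.5 at D2, 55.83, 46.92, 0 and 45.89 at D3, 78.37 and 101 at D10, and 188.9 at D21. The D1 range held all D2 and D10 values, and the log2 change was -0.33 at D3 and 0.78 at D10 (edgeR adjusted p = 0.822 and 0.62).

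Day 2 against day 1 is weaker by design. The D2 libraries were D2_resident 1 (male) and D2_mixed 1 (female), and at D21, the other time point with a female library, there was only 1, so the sex term is set by these 2 and the comparison with the male D1 libraries rests on D2_resident 1, whose spread is assumed to be that of the other groups. In edgeR 48 genes were higher and 0 lower (percent called 0.716; 794 genes at an unadjusted p under 0.05, and 13 lower in DESeq2). Without the sex term, over both D2 libraries, 104 were higher and 21 lower, and with sort as a term 1 gene was called. The mitosis gene Ccnb2 was at 51.55 and 69.03 CPM at D2 (5.92, SE 0.60, edgeR adjusted p = 0.000471), a call that no alternative lost, and Mki67, the proliferation antigen, at 53.93 and 56.01 CPM against 5.572, 3.431 and 0 at D1 (3.91, SE 0.71, edgeR adjusted p = 0.024), a call lost in 6 of 24 alternatives.

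Interferon-stimulated genes were called at D2 in 6 of 16 tested (list median 2.76) and at D3 in 5 (1.61), none at D10 (0.33). Over all genes, 0.716% were called higher at D2 and 2.89% at D3. The interferon-stimulated genes differed between the D2 libraries. The antiviral enzyme Oas1a was at 69.21 CPM in D2_resident 1 and 29.96 in D2_mixed 1, against 4.361, 6.55 and 12.06 at D1 (3.05, SE 0.52, edgeR adjusted p = 0.0166), and Rtp4 at 131.3 and 22.14, against 5.814, 14.97 and 27.31 (2.90, SE 0.56, edgeR adjusted p = 0.0343), inside the D1 range in the mixed library. Of 24 alternatives, 14 lost the call of Rtp4, DESeq2 and the fit without sex among them, and 7 that of Oas1a. The chemokine Cxcl10, itself induced by interferon, was at 224.3 CPM in D2_resident 1 and 3.908 in D2_mixed 1, below all D1 libraries (37.31, 22.77 and 21.28). Its call (2.91, SE 0.46, edgeR adjusted p = 0.0107) thus came from the resident library, and with mixed libraries alone the sign turned (-2.93). Sort, strain and sex cannot be told apart between these 2 libraries.

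Between D3 and D2, 0 genes passed in edgeR (percent called 0; 213 at an unadjusted p under 0.05, and 4 adjusted calls in DESeq2), and with pool and sex both as terms this comparison cannot be estimated. With the sex term, D3 against D2 also rests on D2_resident 1 on the D2 side, so it is no replicated absence of change. Day 10 against day 1 (2 against 3 libraries) gave 115 higher and 35 lower genes in edgeR (percent called 2.24; 1.72 higher and 0.522 lower), and 17 or 26 in all without D10_mixed 1 or D10_mixed 2. Besides the genes above, the matrix protein Tgfbi was at 323.2, 509.4 and 561 CPM at D1 and at 45.12 and 56.81 at D10 (-3.25, SE 0.47, edgeR adjusted p = 0.00179). Glrx (-2.75), the cytokine feedback inhibitor Socs3 (-3.69) and the heme oxygenase Hmox1 (-2.98) were lower as well. Hmox1 was at 775.2, 1290 and 1589 CPM at D1, at 525.5 to 1762 at D3 and at 130.6 and 189.4 at D10. The genes higher at D10 included the protease Plau (3.04) and the oxygen sensor Egln3 (3.06). The class II gene H2-Eb1 was called (4.27) on D10_mixed 2 alone, with 170.4 CPM against 2.375 in D10_mixed 1.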

How the data were processed

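UMI counts per gene and cell were deposited by the authors for each of 25 libraries, together with a table of each cell's cluster, cell type code, UMI total and percent of mitochondrial UMIs. The submitters' processing notes name Cell Ranger 3.1.0 and the builds GRCm38 and mm10, and other steps are not given in the sources used here. The deposited cells had at least 713 UMIs and at most 22.65% mitochondrial UMIs. The deposited matrices of the whole series were not used here. No doublet caller was run and no free RNA was subtracted; 127 barcodes occurred in more than 1 library, among them those of 30 cluster 5 cells.

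Counts were summed over the cluster 5 cells of each library with at least 20 of them (12 libraries) and tested in edgeR 4.0.16 (R 4.3.3) by the quasi-likelihood test, with TMM scaling, the default expression filter, time point and sex as terms, 6 residual degrees of freedom and Benjamini-Hochberg adjustment over 6702 genes at 0.05. DESeq2 1.42.0 was an alternative. Levels are CPM of the summed counts, and ratios between clusters used CPM + 5. Per-cell shares used cells thinned to 2000 UMIs, with exact (Clopper-Pearson) 95% intervals for counting error. Descriptions used Python 3.11.15, NumPy 2.4.6, pandas 2.3.3 and SciPy 1.17.1. A marker counted as present at 20 CPM. Tested on simulated data for D3 against D1 (6702 genes, 200 changed), the fit recovered 92% of genes at a log2 change of 2, 62% at -2, 100% at 4 and 76% at -4, and called 11 unchanged genes.

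Named genes were the 6 markers, the 10 largest rises and 10 largest falls per comparison among called genes with no overlap of libraries and at least 50 CPM in the higher group, up to 4 genes per list, and the 15 genes with the highest ratio of cluster 5 to the other cells of clusters 1 to 6 among those at 50 CPM or more in cluster 5. Other called list members were named as part of a count. The members and lists were chosen with earlier results of these data known. Alternatives changed the scaling, tool, filter, cell minimum, terms and libraries. The result for 1 gene is not reported here.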

Additional observations from a re-analysis of the deposited data

Results flagged for a closer look

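Among the 4 D3 libraries, single values lay far from the other 3 for 8 of 47 genes examined, where chance flags about 1 in 20 groups. In D3_resident 2 these were Cx3cr1 at 305.2 CPM, the gene whose locus carries the transgene, and the linker histones Hist1h1b at 413.2 CPM and Hist1h1e at 260.6 CPM. In D3_mixed 3 they were Gpnmb at 488.7 CPM, the folate receptor Folr2 at 140 CPM and the protease inhibitor Serpinb6a at 300.6 CPM. In D3_mixed 1, where 41 cells were summed, they were Socs3 at 46.92 CPM, which is 5 UMIs, and the amino acid oxidase Il4i1 at 9.384 CPM, which is 1 UMI against 0 in the other 3 libraries.

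The libraries sorted as infiltrating and the library with conflicting labels, which entered no comparison, held 12 cluster 5 cells in 7 of the 8 libraries. That was 3.636% of their 330 cells of clusters 1 to 6, and the control libraries held none in 1887 cells.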

How the results depend on the processing

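Of 106 called values of named genes, 23 kept their call under every alternative run and 1 reversed. Counts of called genes moved most, given here for D2, D3 and D10 against D1 (48, 329 and 150) and for D3 against D2 (0). DESeq2 called 499 genes at D3, 321 at D10 and 4 between D3 and D2. With no expression filter the counts were 387, 828, 439 and 16. Requiring 50 cells per library left 3 (D2), 163 (D3) and 6 (D10), and with at least 10 cells 257 at D10 and 2 between D3 and D2. Without the sex term D2 had 125, and with sort as a term 1. Mixed libraries alone gave 25 at D2 and 4 between D3 and D2. With sequencing pool as a term beside sex, no comparison could be estimated. Without D3_mixed 1 and D3_mixed 2, an alternative chosen after seeing the data, D3 had 515 and D10 254, and without the sex term as well D2 had 250, D3 584 and D10 301.

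Leaving out 1 library at a time gave 7 to 99 genes at D2, 48 to 344 at D3, 17 to 288 at D10 and 0 to 2 between D3 and D2. Counts moved by over 1.5 times at D2 without D1_mixed 1 (19), D1_mixed 2 (7), D1_mixed 3 (99), D2_resident 1 (27), D3_mixed 3 (99), D10_mixed 1 (20) or D10_mixed 2 (19), and at D10 without D1_mixed 2 (44), D1_mixed 3 (98), D3_mixed 3 (288), D10_mixed 1 (17) or D10_mixed 2 (26). The mean share of cluster 5 ranged from 65.89% to 82.06% at D1, 26.19% to 29.38% at D2 and 12.39% to 14.02% at D3. For the share of cluster 5, D10 gave 2.636% to 4.574%. With the replicate number as a block, D2 had 7 called genes, D3 307, D10 125 and D3 against D2 0, and Nes at D3 turned to 0.22. The numbers were not taken to pair the libraries, since the deviations of same-numbered libraries correlated at 0.006, 0.108 and 0.132.

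Of all cells of a library, cluster 5 was 17.52% at D2 (SD 14.93, 0.7958% to 29.5%) and 10.08% at D3 (SD 5.759, 1.985% to 16.21%). With this denominator the D2 and D3 libraries overlapped. The D1 share of cells with a licensing UMI was 34.5% at 1000 UMIs and 64.38% without thinning. Values that reversed were Mcm5 in cluster 5 D3 vs D1 (-0.09 with at least 50 cells, -0.12 without D3_mixed 1 and 2, -0.01 without D1_mixed 3), Cxcl10 in cluster 5 D2 vs D1 (-2.93 with mixed libraries alone, -2.92 without D2_resident 1), Nes in cluster 5 D3 vs D1 (0.72 without D1_mixed 1) and Gatm in cluster 5 against cluster 2 (-0.07 with at least 50 cells). Over all libraries left out in turn, Nes ranged from -0.80 to 0.72, Cxcl10 from -2.92 to 3.18 and Mcm5 from -0.01 to 0.72. The cause was not tested. An alternative with the infiltrating libraries was not run, since none held 20 cluster 5 cells.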
